A study of Nothobranchius furzeri with 6 samples.

Results

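Lysine, glutamate and glutamine are each encoded by a pair of codons that differ only in whether the third base is A or G. Ribosome footprints at these 6 codons were compared in liver of the turquoise killifish Nothobranchius furzeri, a vertebrate whose life span of months makes it a model of aging. The codons were taken in the internal part of the coding sequence, at least 20 codons from either end and outside runs of 4 or more lysine or arginine codons, 4 or more glutamine codons or 5 or more acidic codons. A transcript was used when it had more than 0.5 reads per codon and more than 64 internal reads at every age, the libraries of an age being summed. In the 6335 transcripts that passed, 429812 of 2513258 internal positions were members. They comprised 60788 AAA and 84036 AAG codons (lysine), 53142 GAA and 117971 GAG codons (glutamate), and 22626 CAA and 91249 CAG codons (glutamine). A further 6874 such codons lay in the excluded runs, given by amino acid as 2974 for lysine, 3195 for glutamate and 705 for glutamine.

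Footprints had been sequenced at 3 ages, with 2 libraries each: 5 weeks after hatching (young), 12 weeks (adult) and 39 weeks (old). No treatment or genotype set the ages apart. Each library came from the pooled livers of several fish, female and male in equal numbers per the study's methods, so libraries differ as pools do, not as single fish. The livers were lysed frozen in a buffer with cycloheximide, an inhibitor of elongation, and digested with RNase I. Identifiers in the files carry no gene names, so the tissue could not be checked against markers of liver cells.

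In eukaryotes, the A-ending codons of these amino acids are read by tRNAs whose anticodon begins with a modified uridine, which the Elongator complex and a thiolation pathway complete. The G-ending codons are read by a separate tRNA whose anticodon begins with cytidine, and the uridine tRNA can also pair with G by wobble. In yeast, loss of the uridine modifications slows decoding of A-ending lysine and glutamine codons. These codons have therefore become the usual place to look for effects of wobble decoding on elongation.

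The measure used was the pause score, the footprints at a codon over the mean footprints per codon of that transcript's internal part, so that a score of 1 equals the transcript's mean. Totals were 37195456 and 37104582 footprints (young), 39738019 and 38226452 (adult), and 39080600 and 22617158 (old). The deposited codon was read as occupying the P site, where the peptidyl-tRNA sits, because mean density was highest at the start codon itself, at 5.59 times the transcript mean, against 0.327 times 1 codon upstream. The codon after it was then in the A site, where the next aminoacyl-tRNA is accepted, and the codon before it in the E site, from which tRNA leaves. In the methods, however, footprints are said to be assigned to the A site. Under that reading, every value given for the P site would belong to the A site and every value for the E site to the P site.

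For each codon, the position with the highest minimum score over the 6 libraries is printed here to give the scale of single sites, since these are places where the score was high in every library. The window holds 4 codons on each side, written 5′ to 3′ as in the deposited codon column, with the P-site codon in capitals.
Lysine AAA, codon 181 of 388: aagtacttgcagAAAgaaaatgaagct
Lysine AAG, codon 33 of 224: ctggagctgctgAAGcaacaggaccaa
Glutamate GAA, codon 182 of 388: tacttgcagaaaGAAaatgaagctaaa
Glutamate GAG, codon 70 of 859: ggcaagaacaagGAGgatgccattagt
Glutamine CAA, codon 34 of 224: gagctgctgaagCAAcaggaccaagca
Glutamine CAG, codon 53 of 141: caaacatgtacaCAGgacatcaatgct
The AAA and GAA windows came from 1 transcript at neighbouring codons, as did the AAG and CAA windows from another. At the AAA codon the score lay between 8.14 and 13.4 over the 6 libraries, and at the GAA codon that follows it between 16.8 and 31.3. At the AAG codon it lay between 26.2 and 41.8, and at the CAA codon that follows it between 11.3 and 15.5. The GAG codon scored between 13.2 and 20.1 and the CAG codon between 16.9 and 26.7. Each of these sites therefore held at least several times its transcript's mean in all 6 libraries. They were chosen for high scores among 9770 AAA, 14246 AAG, 7921 GAA, 16915 GAG, 3346 CAA and 12563 CAG codons in transcripts with over 2 reads per codon in every library, and are not typical of their codons.

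Averaged over all members, the third base went with opposite differences in lysine and glutamate when the codon was in the A site. In lysine, AAA had the lower score, with a mean of 0.901 ± 0.044 for AAA and 1.083 ± 0.029 for AAG (SD, n = 6 libraries). The AAA scores were 0.896 and 0.913 (young), 0.913 and 0.817 (adult), 0.914 and 0.950 (old), and the AAG scores were 1.062 and 1.108 (young), 1.049 and 1.074 (adult), 1.082 and 1.126 (old). No AAA value reached any AAG value. The log2 ratio of AAA over AAG averaged -0.27 ± 0.067, or 0.831-fold, and ranged between -0.39 in the second adult library and -0.20 in the first (limma, adjusted p = 9.31e-32). It was below 0 in 6 of 6 libraries (two-sided exact sign-flip permutation test, p = 0.0312, the smallest that 6 libraries allow).

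In glutamate, GAA had the higher score in the A site. GAA averaged 1.280 ± 0.057 and GAG 0.972 ± 0.027 (SD, n = 6). GAA scores were 1.237 and 1.324 (young), 1.193 and 1.303 (adult), 1.276 and 1.346 (old), and GAG scores were 0.953 and 0.988 (young), 0.928 and 0.990 (adult), 0.971 and 1.001 (old). All GAA values stood above all GAG values. The log2 ratio of GAA over GAG was 0.40 ± 0.026, or 1.316-fold, within 0.36 and 0.43 in every library (limma, adjusted p = 4.82e-47; exact sign-flip p = 0.0312). GAA ranked 6th of the 61 sense codons by mean A-site score, against 31st for GAG, while AAA ranked 42nd and AAG 16th.

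In glutamine, the codons were close together in the A site. CAA averaged 0.833 ± 0.039 and CAG 0.812 ± 0.025 (SD, n = 6), ranking 54th and 57th of 61. Their values overlapped, between 0.780 and 0.871 for CAA and between 0.783 and 0.845 for CAG. The log2 ratio of CAA over CAG was 0.03 ± 0.047, above 0 in 4 of 6 libraries (exact sign-flip permutation test, p = 0.156). The limma test called it, with an adjusted p of 0.0346. Its standard error there rests on the spread within ages, shared by all ratios tested. The sign-flip test does not take the ages into account. It dropped to -0.0073 when reads were summed over transcripts in place of averaging scores, so no direction is given for glutamine in the A site.

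**Figure D1:**
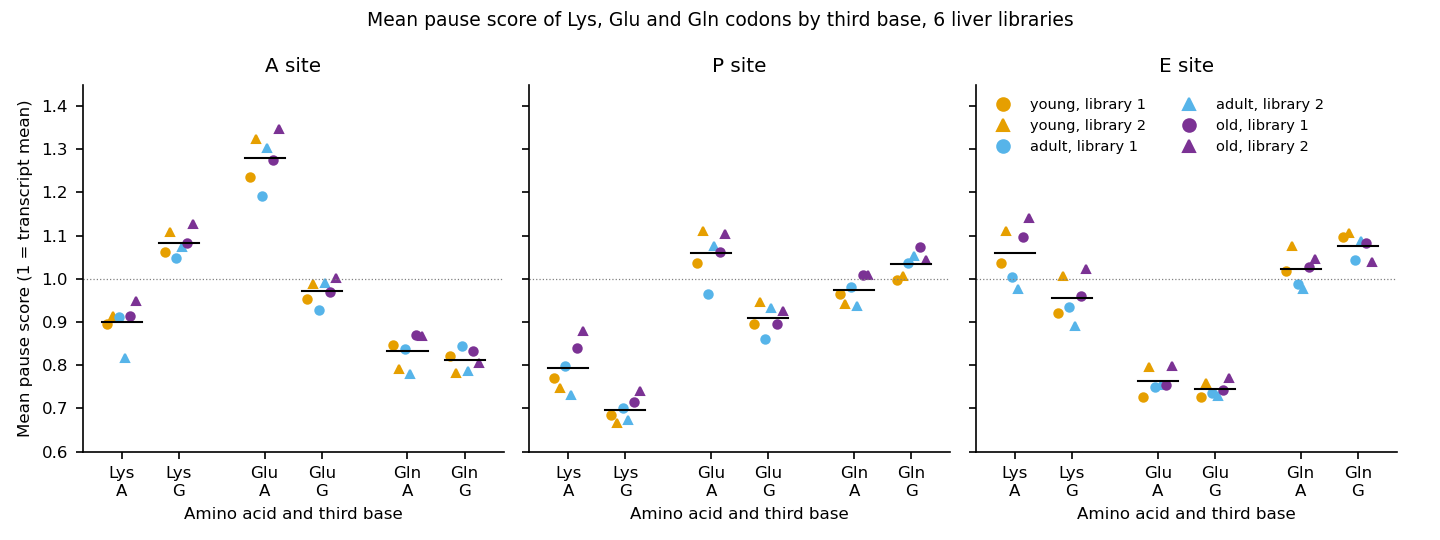
Mean pause score (y axis, 1 = transcript mean) of lysine, glutamate and glutamine codons by the third base (x axis) in the A, P and E sites. Points are the 6 libraries and bars their means. In the A site lysine A-ending codons lie at 0.817 to 0.950, below all G-ending values, and glutamate A-ending codons at 1.193 to 1.346, above all G-ending values.

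In the P site, both lysine and glutamate had the higher score on the A-ending codon. AAA averaged 0.794 ± 0.058 and AAG 0.697 ± 0.028, the lowest of the 61 codons (SD, n = 6). Within each library AAA stood above AAG, with log2 ratios between 0.12 and 0.25 and a mean of 0.19 ± 0.048. GAA averaged 1.059 ± 0.054 and GAG 0.910 ± 0.031, with log2 ratios between 0.16 and 0.25 and a mean of 0.22 ± 0.033. Glutamine went the other way: CAA averaged 0.974 ± 0.032 and CAG 1.035 ± 0.029, with a log2 ratio of -0.09 ± 0.045 that was below 0 in 6 of 6 libraries. All 3 P-site ratios passed the limma test, with adjusted p-values of 1.05e-20 for lysine, 4.03e-25 for glutamate and 4.27e-07 for glutamine, and had an exact sign-flip p of 0.0312 each.

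In the E site, lysine alone of the 3 pairs kept 1 direction in every library. AAA averaged 1.061 ± 0.065 and AAG 0.956 ± 0.051 (SD, n = 6), with log2 ratios between 0.10 and 0.19 and a mean of 0.15 ± 0.030 (limma, adjusted p = 1.92e-15; exact sign-flip p = 0.0312). GAA and GAG had the 2 lowest E-site scores of the 61 codons, at 0.764 ± 0.028 for GAA and 0.744 ± 0.017 for GAG. Their log2 ratio of 0.04 ± 0.026 was above 0 in 5 of 6 libraries (limma, adjusted p = 0.0293; exact sign-flip p = 0.0625), and it dropped to 0.0011 when members with another lysine, glutamate or glutamine codon within 2 codons were left out. For glutamine, CAA averaged 1.022 ± 0.037 and CAG 1.076 ± 0.028, a log2 ratio of -0.07 ± 0.057 that was below 0 in 5 of 6 libraries (limma, adjusted p = 1.51e-05; exact sign-flip p = 0.0625).

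All 9 ratios of the 3 pairs were called by limma at an adjusted p under 0.05, but so were 36 of the 39 ratios of all 13 pairs of codons that differ only in whether the third base is A or G, a background of 92.3%. The smallest exact sign-flip p, 0.0312, was likewise reached by most of the 13 pairs at each site, and in the P site by all but Leu TTA/TTG. Passing either test, or keeping 1 direction in every library, is therefore not particular to these amino acids. Their place among the 13 pairs is the more informative description. In the A site, lysine was the lowest of the 13, below Arg AGA/AGG at -0.22, and glutamate was second highest, behind Gly GGA/GGG at 0.42, while the median of the other 10 pairs was 0.06. In the P site, glutamate was the highest and lysine 3rd highest, with the other pairs between -0.52 (Ser TCA/TCG) and 0.20 (Leu CTA/CTG). In the E site, lysine was second highest behind Arg AGA/AGG at 0.20, and the lowest was Ser TCA/TCG at -0.25. Glutamine stood 9th in the A site, 10th in the P site and 10th in the E site, within the range of the other pairs at each.

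**Figure D2:**
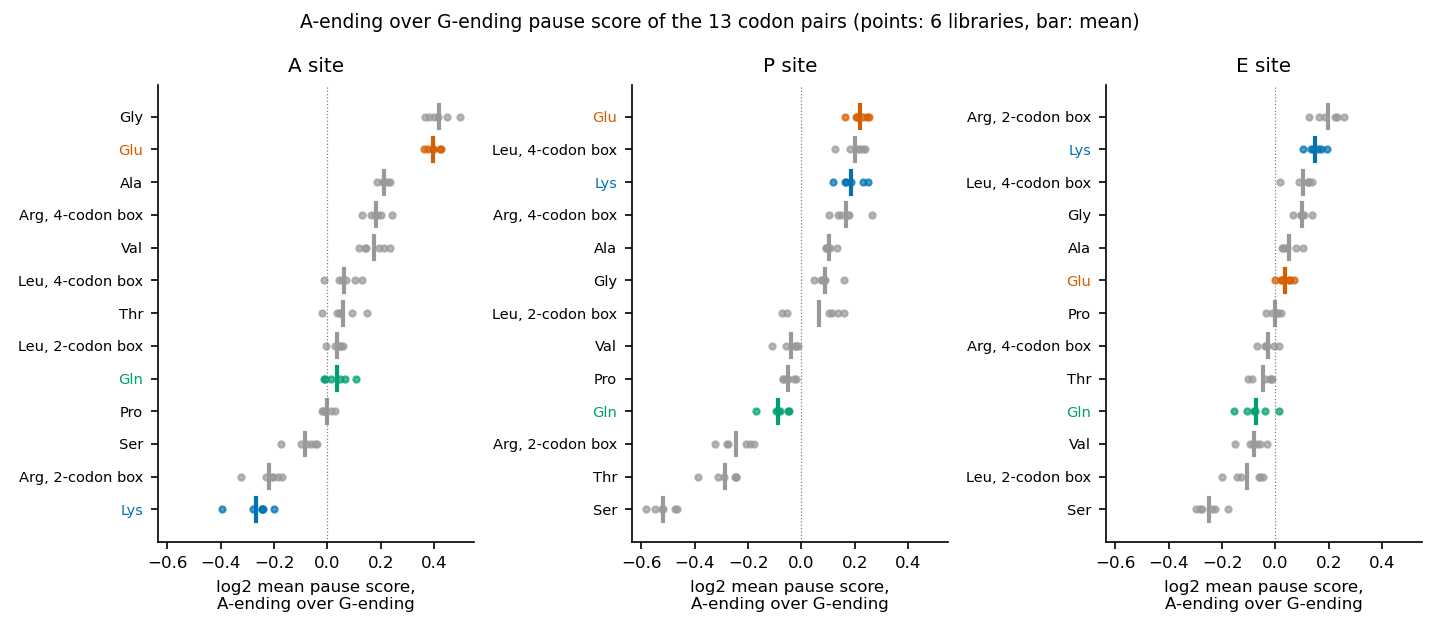
Log2 ratio of mean pause score, A-ending over G-ending codon (x axis), of the 13 codon pairs in the A, P and E sites, ordered from lowest at the bottom to highest at the top. Points are the 6 libraries and bars their means, with lysine, glutamate and glutamine in colour. Lysine is lowest in the A site at -0.27 and 3rd highest in the P site at 0.19, and glutamate is second highest in the A site at 0.40.

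The differences were placed along the footprint by taking the ratio with the footprint up to 8 codons before and after the codon. For lysine, the largest ratio in size was at the A site, with the sign changing between the A site at -0.27 and the P site at 0.19 over 1 codon. For glutamate the ratio was also largest at the A site, at 0.40, but was spread more widely, with 0.16 and 0.15 at the footprints 2 and 3 codons before the codon and 0.22 at the P site. Glutamine showed no such peak, its means lying between -0.09 at the P site and 0.09 with the footprint 4 codons after the codon. Ratios of similar size also occurred away from the A, P and E sites. With the footprint 6 codons before the codon, the means were 0.10 for lysine, 0.10 for glutamate and 0.09 for glutamine, above 0 in every library. For glutamate the ratio was -0.13 with the footprint 4 codons after the codon, below 0 in every library. These exceeded in size the E-site ratios of glutamate (0.04) and glutamine (-0.07), and their cause was not tested. At 7 and 8 codons to either side the means of all 3 pairs lay between 0.0018 and 0.04. The libraries differed most for lysine 5 codons after the codon, where they ranged between -0.22 and 0.05.

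**Figure D3:**
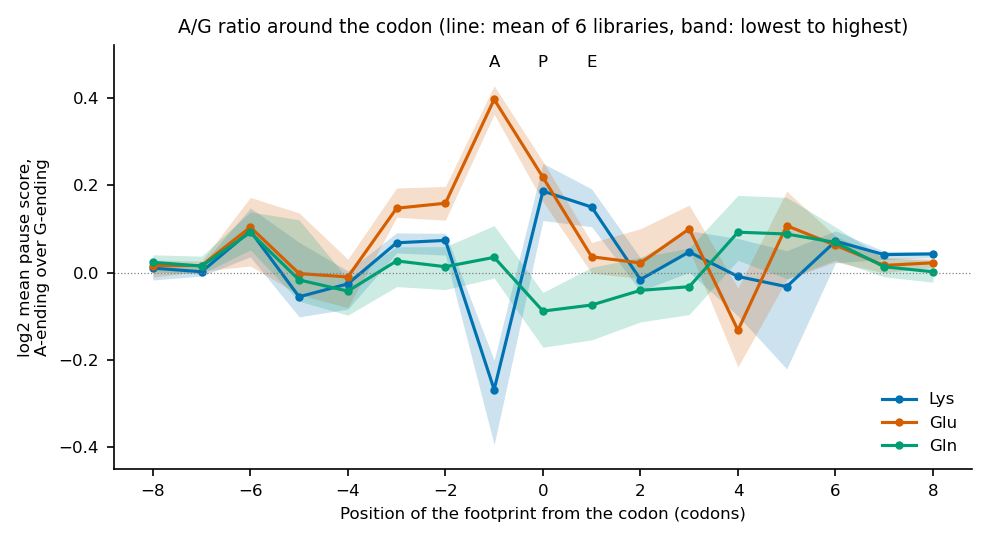
Log2 ratio of mean pause score, A-ending over G-ending codon (y axis), against the position of the footprint's P-site codon relative to the lysine, glutamate or glutamine codon (x axis, in codons). Lines are means of 6 libraries and bands run between the lowest and highest library. Letters mark the A, P and E sites, and the glutamate peak of 0.40 and the lysine trough of -0.27 both lie at the A site.

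Within single transcripts, scores averaged over the 6 libraries mostly went the same way. Glutamate in the E site and glutamine in the A site were close to an even split. Among 3990 transcripts with at least 5 AAA and 5 AAG codons, the mean A-site score over the 6 libraries was higher for AAA in 31.3%, with a median log2 ratio of -0.27 and quartiles of -0.64 and 0.10. In the P site AAA was higher in 62.8% and in the E site in 60.7%. For glutamate, GAA had the higher score in 75.9% of 3660 transcripts in the A site, 66.2% in the P site and 51.9% in the E site. For glutamine, CAA was higher in 50.7% of 1604 transcripts in the A site, 42.1% in the P site and 43.3% in the E site. In single libraries, AAA was higher in 32.9% to 39.1% of transcripts in the A site and in 50.6% to 60.4% in the P site. In the E site AAA was higher in 53% to 59.4%. GAA was higher in 64.1% to 70.2% in the A site, 56.4% to 62.5% in the P site and 47.6% to 51.5% in the E site. CAA was higher in 45.4% to 50.9% in the A site, 39% to 45.4% in the P site and 38.4% to 47.5% in the E site. These shares describe transcripts of the same 6 libraries, so they are no test over samples.

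A-ending codons were the less frequent ones of each pair, at 42.0% of lysine, 31.1% of glutamate and 19.9% of glutamine members. In the 100 transcripts with the most reads, the A-ending shares were higher, at 47.4% for lysine, 40.4% for glutamate and 29.7% for glutamine. Dividing members by the depth of the transcript, by which of 3 equal parts of the coding sequence they lay in or by the share of A-ending members in the transcript left the lysine A-site ratio between -0.29 and -0.25 and the glutamate A-site ratio between 0.38 and 0.41 in all 9 classes. The level itself depended on position, with GAA at 1.390 and GAG at 1.070 in the first of these parts, and GAA at 1.228 and GAG at 0.926 in the last. Glutamine remained between 0.01 and 0.07 in these classes.

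The A-site ratio of lysine differed with the base that followed the codon. With G as the first base of the next codon (24492 AAA and 25182 AAG codons), the A-site scores of lysine were nearly equal, at 0.825 for AAA and 0.840 for AAG, and the log2 ratio was -0.03 ± 0.030 (SD, n = 6; between -0.06 and 0.03). With T as the next base (6814 AAA and 12447 AAG codons), AAA scored 0.949 and AAG 1.328, a log2 ratio of -0.49 ± 0.083 (between -0.63 and -0.40). Before A and C the lysine ratios were -0.29 and -0.31. For lysine, the 6 library values before G all lay above the 6 before every other base. Whether this lies with the base or with the whole next codon was not tested. In the P site the lysine ratio was 0.35 ± 0.030 before G, 0.09 ± 0.071 before C, 0.08 ± 0.070 before A and 0.0024 ± 0.074 before T, above 0 in 6, 6, 5 and 3 of 6 libraries in that order. A comparison within a library of the ratios before G and before T gave a difference of 0.46 ± 0.066 in the A site (SD, n = 6), the largest of the 13 pairs.

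Glutamate had its highest A-site ratio before G too, at 0.53 ± 0.034, against 0.35 ± 0.035 before T, and stayed above 0 in every library before every base. Glutamine had a log2 ratio of 0.16 ± 0.056 before G, above 0 in 6 of 6 libraries, and -0.06 ± 0.083 before T, above 0 in 1 of 6. All 13 pairs had a higher mean A-site ratio before G than before T, by between 0.04 (Arg CGA/CGG) and the 0.46 of lysine, with glutamate 10th and glutamine 7th in the order of this difference. A higher mean ratio before G than before T was therefore shared by the other pairs, though for Arg CGA/CGG the libraries reached down to -0.22. Gly GGA/GGG had its highest ratio before A, at 0.54, against 0.49 before G. By the base before the codon, the lysine A-site ratio was -0.44 after A, -0.39 after T, -0.26 after C and -0.24 after G, and glutamate lay between 0.31 and 0.38, each below its ratio of 0.40 over all members. For glutamine in the P site the base before the codon went with the wider spread, between -0.17 after A and -0.0094 after C, against -0.13 before C and -0.02 before G. These contexts were examined after seeing the data and are given as descriptions.

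**Figure D4:**
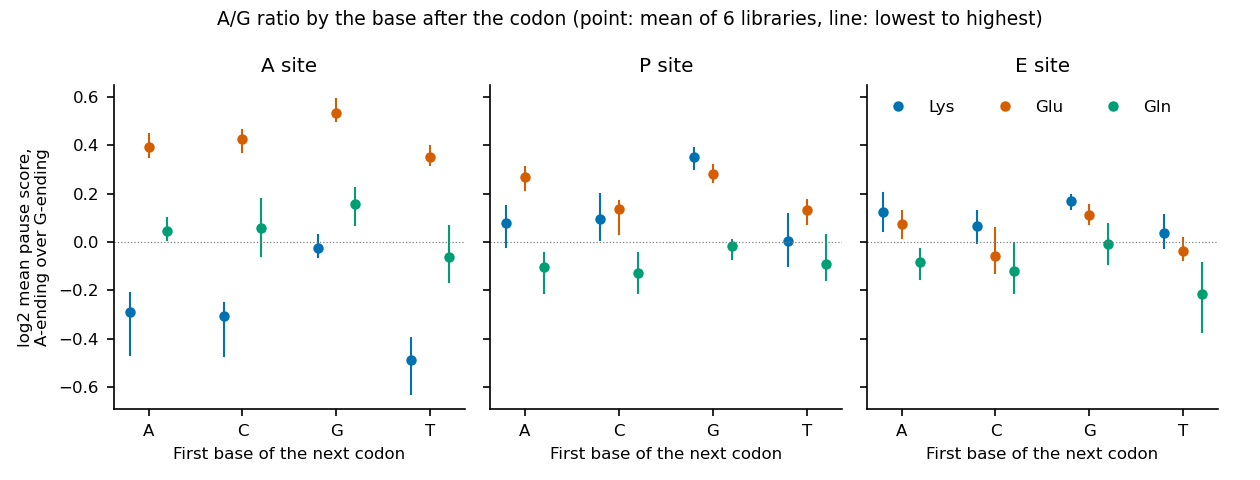
Log2 ratio of mean pause score, A-ending over G-ending codon (y axis), by the first base of the next codon (x axis) in the A, P and E sites. Points are means of 6 libraries and lines run between the lowest and highest library. In the A site lysine lies at -0.03 before G and -0.49 before T, while glutamate stays above 0 before all 4 bases.

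Positions with a member codon in both the P and the A site gave 36 combinations. The highest mean score was 1.209 ± 0.088 for GAA in the P site with AAG in the A site (2023 positions; SD, n = 6), and the lowest was 0.607 ± 0.033 for AAG in the P site with AAA in the A site (2816 positions). Whichever of the 6 codons was in the P site, AAA in the A site had a lower mean than AAG, and GAA a higher mean than GAG. With AAA in the P site the lysine means were close, at 0.671 for AAA and 0.692 for AAG. Both young libraries went the other way there, with 0.653 and 0.699 for AAA against 0.625 and 0.652 for AAG. CAA in the A site was above CAG with 2 of 6 P-site codons. In the P site, GAA was above GAG with 6 of 6 A-site codons, AAA above AAG with 5 of 6 and CAA above CAG with 0 of 6. Repeated codons differed as well: the mean was 1.090 for 2 GAA codons and 0.698 for 2 GAG codons, whereas 2 AAA codons had 0.671 and 2 AAG codons 0.669. Lysine in the P site gave a mean below 1 with each of the 6 partners, the highest being 0.990 for AAA followed by GAA.

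**Figure D5:**
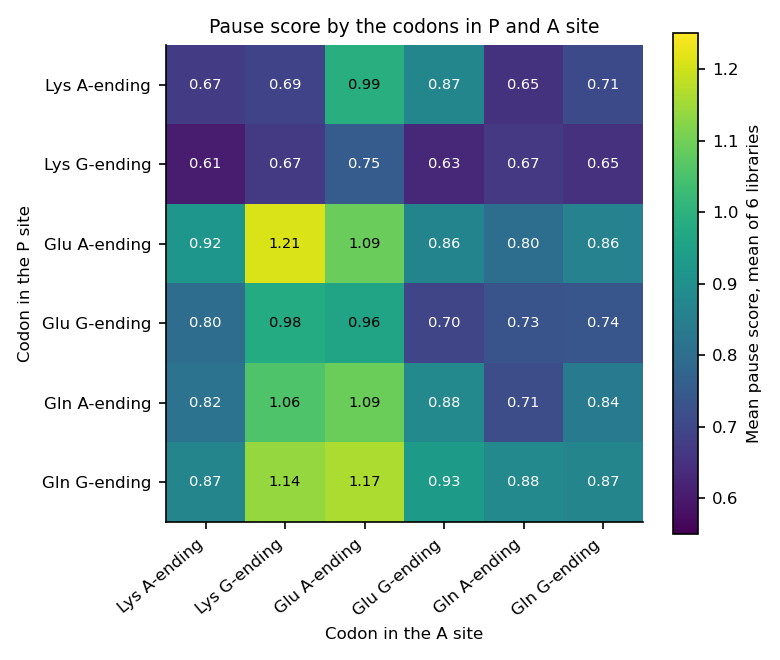
Mean pause score (colour and printed value, mean of 6 libraries) for every combination of the 6 codons in the P site (rows) and A site (columns). Lysine G-ending codons in the P site give the darkest row, from 0.61 to 0.75, and the brightest cell is glutamate A-ending followed by lysine G-ending, at 1.21.

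Strong pauses, taken as scores above 6, followed the A-site means in their order within each pair, but not over libraries. The second adult library had the highest AAA share and the lowest AAA mean, at 0.817. In the A site, 1.79% ± 0.51 of AAA and 2.57% ± 0.76 of AAG codons were above 6 (SD, n = 6), and AAG had the higher share in 6 of 6 libraries. The shares were 3.45% ± 0.98 for GAA and 2.22% ± 0.74 for GAG, with GAA higher in 6 of 6 libraries. For glutamine they were 1.71% ± 0.57 for CAA and 1.62% ± 0.59 for CAG, with CAA higher in 4 of 6. Over all internal positions outside runs the share was 2.21% ± 0.69. Among libraries the AAA share was lowest at 0.972% in the first old library, whose median transcript had 1.46 reads per codon, and highest at 2.45% in the second adult library, whose median transcript had 0.723. The part of transcript depth in this was not tested. All libraries were also thinned to the same total of internal reads, which does not make the depth of each transcript alike. The coverage filter was then applied anew and passed 4532 transcripts, against 6335 without thinning. The AAA share then lay between 0.919% and 2.13%, lowest in both old libraries (0.919% and 0.966%). The share over all internal positions outside runs was likewise lowest in the old libraries (1.14% and 1.20%). The second old library had the fewest internal reads and kept all of them. Its AAA share was 1.88% in the 6335 transcripts and 0.966% in the 4532. The parts of depth and of the changed set of transcripts in these shares were not tested. Mean shares after thinning were 1.41% for AAA, 2.12% for AAG, 2.94% for GAA and 1.80% for GAG. The number of libraries with the higher A-ending share was the same for each pair.

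Age was then compared, to ask whether A- and G-ending codons diverge as fish grow older. None of the 9 ratios of lysine, glutamate and glutamine changed between any 2 ages by the limma test on all 39 ratios. Old against young, 0 of 39 ratios were called (0%), with 1 at an unadjusted p under 0.05, and adult against young and old against adult 1 of 39 each (2.56%), both the Leu TTA/TTG ratio in the P site. At an unadjusted p under 0.05 there were 4 ratios adult against young and 7 old against adult, those of old against adult including lysine in the P site and glutamine in the A and E sites. In the A site the lysine ratio averaged -0.26 (young), -0.30 (adult) and -0.24 (old). The change old against young was 0.02, with a 95% interval of -0.06 to 0.10. For glutamate the A-site means were 0.40 in young, 0.38 in adult and 0.41 in old, and the change old against young was 0.01 (-0.07 to 0.09). For glutamine they were 0.03 in young, -0.01 in adult and 0.09 in old, and the change was 0.06 (-0.02 to 0.13). These A-site intervals, old against young, reach 0.13 on the log2 scale at most and rest on the assumption that all ratios share 1 spread. Other intervals reached further, to 0.15 for lysine in the P site old against young and 0.18 for glutamine in the A site old against adult. Within ages the lysine A-site ratio had an SD of 0.024 (young), 0.14 (adult) and 0.0024 (old; n = 2 libraries each). The shared spread may not hold for this ratio, so its interval may be too narrow.

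The largest change of a member ratio between old and young was that of lysine in the P site. The ratio of AAA over AAG was 0.17 and 0.16 (young), 0.19 and 0.12 (adult), and 0.23 and 0.25 (old). Both old values stood above all others, and the change old against young was 0.07 (SE 0.04; limma, adjusted p = 0.809). Old against adult the change was 0.09 (adjusted p = 0.230).

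Among the 6 codons and 3 sites, the largest change old against young was that of AAA in the P site. Its score was 0.770 and 0.746 (young), 0.798 and 0.730 (adult), and 0.839 and 0.881 (old), so that both old libraries lay above the other 4. The log2 change was 0.18 old against young (SE 0.05; 95% interval 0.08 to 0.29; limma over 183 codons and sites, adjusted p = 0.0840) and 0.17 old against adult (adjusted p = 0.0762), neither past the threshold. AAG in the P site had 0.685 and 0.666 (young), 0.701 and 0.672 (adult), and 0.715 and 0.740 (old), a change of 0.11 old against young (limma, adjusted p = 0.314). Some codons outside the members moved at least as far as AAA old against young. His CAT in the P site averaged 0.967 in young and 1.102 in old, and Tyr TAC in the A site 1.212 and 1.032. In the E site AAA differed by 0.18 between old and adult (limma, adjusted p = 0.0755). This change passed the threshold with pause scores capped at 10 (0.20, adjusted p = 0.0498), where 3 of 183 codons and sites were called (1.64%). With the deposited codon as the A site, 11 of 183 codons and sites (6.01%) were called old against adult. Among them were AAA in the P site (0.18) and AAA and AAG in the E site (0.21 and 0.18). That P-site value is the E-site change of AAA given above, renamed by the shift of 1 codon. In the main limma fit, without these changes of setting, no codon of any amino acid was called in any comparison of ages, 0 of 183 each (0%). At an unadjusted p under 0.05 there were 27 old against young, 16 adult against young and 30 old against adult, and edgeR's test on summed reads likewise called 0.

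Leaving out 1 library brought several further calls, of members and of other codons alike. The coverage filter was applied anew each time. It passed 3883 transcripts without the first adult library, 5507 without the second and 4829 without the first young library, against 6335 with all. Whether the library or the change of transcripts brought the calls was not tested. Without the first adult library, limma gave an adjusted p of 0.00141 for the change of AAA in the P site old against young, and without the second 0.000978, with log2 changes of 0.17 and 0.18. These fits called 17 (9.29%) and 13 (7.1%) of all 183 codons and sites. Old against adult, leaving out the first adult library also brought AAA in the A, P and E sites (0.18, 0.22 and 0.19), AAG in the E site (0.14) and CAA in the A site (0.17) past the threshold, as well as the ratios of lysine in the A site (0.14) and P site (0.12) and of glutamine in the A site (0.10) and E site (0.12). The same fits called 27 of 183 codons and sites (14.8%) and 12 of 39 ratios (30.8%). The lysine A-site ratio was also called adult against young, at -0.13, among 4 of 39 ratios (10.3%). Without the second adult library, the glutamine A-site ratio was called old against adult (0.11), among 3 of 39 (7.69%), and without the first young library AAA in the P and E sites (0.16 and 0.17), among 7 of 183 (3.83%). In each such fit an age is represented by 1 library, which is assumed to vary like the others. DESeq2 on summed reads called AAA (0.20, adjusted p = 0.0125) and AAG (0.17, adjusted p = 0.0197) in the P site old against young, among 15 of 183 (8.2%).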

How the data were processed

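The authors removed adapters (Cutadapt 1.4.2), trimmed the first nucleotide, took out ribosomal RNA and mapped what was left by Bowtie 1.3.1, allowing 2 mismatches and 1 location, to the longest coding sequence of each of 22757 genes with 21 flanking nucleotides. They deposited counts, whole footprints per codon and library, not normalized. Unique alignment leaves gaps in near-identical genes. No molecular identifiers were described, so PCR copies are counted.

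Pause scores were averaged per codon, site and library. Log2 ratios of A- over G-ending codons (13 pairs at 3 sites) and log2 mean scores (61 codons at 3 sites) were each fitted with limma 3.58.1 in R 4.3.3, all 6 libraries in 1 fit, with Benjamini-Hochberg adjustment over the 39 or 183 features and calls under 0.05. The 3 sites of a codon read overlapping positions and are not independent. For the ratios limma estimated a spread within ages common to all 39, which can make p-values small. The exact sign-flip test over libraries does not use it. edgeR 4.0.16 and DESeq2 1.42.0 were alternatives, with leaving out libraries, other filters and averages, the replicate number, and the deposited codon as the A site. Scripts were tested on simulated data.

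The members, lists and tests were chosen with earlier results of these data known. All 6 codons are named. Shown positions have the highest minimum P-site score over the libraries. No identifier matched a gene name.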

Additional observations from a re-analysis of the deposited data

How the results depend on the processing

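Of 189 values of the 9 ratios under other settings, 174 kept their direction and their side of the threshold. Reading the deposited codon as the A site gave ratios of 0.19 for lysine in the A site, -0.016 for lysine in the E site, -0.088 for glutamine in the A site and 0.022 for glutamate in the E site, which follows from the shift by 1 codon. Under all settings other than that one, the A-site ratio of lysine lay between -0.32 and -0.22 and that of glutamate between 0.34 and 0.42. The glutamine A-site ratio was -0.0073 as a ratio of sums, -0.012 with no minimum of reads per codon and 0.022 matched on the codon before, and lay between 0.024 and 0.041 without 1 library, no longer called without the first young, the first adult or the second old library. The glutamate E-site ratio was 0.034 with no minimum of reads, 0.027 with 50 codons left out at each end, 0.0011 with no member codon nearby and 0.0049 matched on the codon after, and lay between 0.029 and 0.058 without 1 library, no longer called without the second old library. Other settings raised these ratios. With all 6 libraries and the deposited codon as the P site, the highest values were 0.078 for glutamine in the A site and 0.13 for glutamate in the E site. The causes were not tested. Matching on neighbouring codons was added after seeing the data.

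Called A/G ratios old against young numbered 2 as a ratio of sums and 0 to 3 without 1 library (3 without the second adult library). Adult against young there were 0 as a ratio of sums or with each transcript counted once, and 1 to 4 without 1 library (4 without either adult library). Old against adult there were 0 in those 2 settings, 2 with coverage required in each library or over 2 reads per codon, and 0 to 12 without 1 library, 12 being without the first adult library. Called codons old against young numbered 3 as a ratio of sums, 15 with DESeq2 and 0 to 17 without 1 library. Adult against young there were 1 with each transcript counted once, 1 with scores capped, 3 with DESeq2 and 0 to 16 without 1 library. Old against adult there were 3 with scores capped, 11 with the deposited codon as the A site, 5 with DESeq2 and 0 to 27 without 1 library. The highest count in each of these codon comparisons was without the first adult library.

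With the replicate block 36 ratios were called against 0 and no call of a member changed. The labels do not say that a number pairs libraries. Deviations of same-numbered libraries over 183 codons and sites correlated at 0.423 for old and young, 0.31 for adult and young and 0.112 for old and adult. The number of libraries, 2 per age, limits what the comparisons of ages can show, and the second old library was the shallowest, at 22617158 footprints.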
